A study of Mus musculus with 66 samples.

Results

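The 7 genes described here encode neuropeptide precursors of the nucleus accumbens (NAcc): Cartpt, Nts, Cck, Vip, Crh, Tac2 and Pnoc. They were taken by symbol from a table of 24138 genes, where each had 1 entry of its own, and were read in all 66 libraries. The study followed WT and iMSN-D2RKO male mice (strain C57BL/6 in the labels, C57BL/6J background in the methods) through a light/dark cycle. The iMSN-D2RKO mice carry a floxed D2R gene on both alleles together with a Cre transgene driven by the D1R promoter, which removes the dopamine D2 receptor from the indirect pathway medium spiny neurons (iMSNs) through precursors that express both receptors. At ZT3 (zeitgeber time, hours after lights on) mice received saline or 20 mg/kg cocaine, and ventral striatal punches were taken at ZT7, ZT11, ZT15, ZT19 and ZT23. Mice taken at ZT3 itself carry the label "saline/cocaine" and start both series. The result is 22 groups of 3 libraries, 33 of each genotype. Because nothing in the labels ties the 3 libraries of a group to separate mice, p-values measure the spread between libraries, which may be partly technical.

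Neuropeptides are cut from larger precursors, stored in dense-core vesicles and released from neurons beside fast transmitters. In the NAcc, CART peptide (from Cartpt) and neurotensin (Nts) are made by subsets of medium spiny neurons and are known for their interplay with dopamine and psychostimulants. Cholecystokinin (Cck) is abundant in cortical and other afferent neurons, and vasoactive intestinal peptide (Vip) marks a class of cortical interneurons and the central clock. Corticotropin-releasing hormone (Crh) drives the stress axis, neurokinin B (Tac2) is a tachykinin, and Pnoc encodes nociceptin, an opioid-related peptide.

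Cartpt lies at chr13:99898483-99910179, Nts at chr10:102481756-102490418, Cck at chr9:121489824-121495694, Vip at chr10:5639193-5647617, Crh at chr3:19693401-19695396, Tac2 at chr10:127724478-127731768 and Pnoc at chr14:65400673-65425564 of GRCm38, the assembly also called mm10. All 7 are protein-coding. The windows around an annotated transcription start, from 250 bases before it to 50 bases after it, were at hand for 5 of the 7 genes (RefSeq, GRCm38.p6). The 2 windows shown are those of the genes that differed between genotypes, read 5′ to 3′ on the minus strand at chr13:99900634-99900933 (Cartpt) and chr10:102490369-102490668 (Nts). Capitals mark matches to the cAMP response element (TGACGTCA), to its 5-letter core (TGACG) and to the AP-1 site (TGANTCA), each searched on both strands.
Cartpt: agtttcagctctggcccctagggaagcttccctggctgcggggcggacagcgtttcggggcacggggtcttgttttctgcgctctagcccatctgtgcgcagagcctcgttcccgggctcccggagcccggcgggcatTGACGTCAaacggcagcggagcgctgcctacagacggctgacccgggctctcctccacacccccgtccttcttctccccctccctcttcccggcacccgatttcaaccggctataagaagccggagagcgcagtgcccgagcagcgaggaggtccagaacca
Nts: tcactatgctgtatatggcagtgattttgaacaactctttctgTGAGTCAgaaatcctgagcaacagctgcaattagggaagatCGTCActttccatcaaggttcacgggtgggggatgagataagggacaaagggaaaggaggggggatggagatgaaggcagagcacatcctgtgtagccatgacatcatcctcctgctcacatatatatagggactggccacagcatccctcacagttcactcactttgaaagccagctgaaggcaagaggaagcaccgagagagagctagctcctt

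The start used for Cartpt lies inside the gene span given above, not at its upstream end. The Cartpt window held the complete cAMP response element 112 bases before that start, which contains the core on both strands. The Nts window held an AP-1 match 207 bases and a core match 166 bases before the start. The Cck and Vip windows each held a core match, 47 and 79 bases before the start, and the Tac2 window held none of the 3 motifs. Among 32851 mouse windows of the same length, 1.79% held the complete element, 20.8% the core and 7.81% the AP-1 letters. These matches describe letters only, and no binding was measured.

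Library quality and the genotype label were examined first. The deposited values are FPKM, so levels are per transcript length. The sum of FPKM ranged from 364078 to 465297 in 65 libraries and reached 690048 in the remaining iMSN-D2RKO saline ZT7 library (replicate 1). A principal component of the deviations from group means, holding 43.6% of their variance, set 13 libraries apart (6 WT, 7 iMSN-D2RKO, none at ZT3). Drd2 itself ran from 99.1 to 304 FPKM (median 129) in WT and from 78.0 to 375 FPKM (median 112) in iMSN-D2RKO libraries, so the ranges overlapped. Over all libraries its log2 fold change, iMSN-D2RKO against WT, was -0.13 (SE 0.13, limma, adjusted p = 0.790). The level of Drd2 thus did not tell the genotypes apart, and the label stays unchecked. The value pools all exons of the gene and all cells of a punch, and the part of either in this outcome was not tested. In tissue punches, fewer cells of a type and less RNA per cell cannot be told apart. All 15 genes of the spiny projection neuron marker list averaged at least 1 FPKM, as did all 12 of the cortical list. Of the 14 thalamic, septal and hypothalamic markers 8 did, and Hcrt was at 0 in 42 libraries and Oxt in 26.

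Across all 66 libraries, the 7 precursors fell into 3 tiers of abundance. Cck stood highest with a mean of 119 FPKM ± 74.9 (SD, n = 66). Cartpt (28.5 ± 24.6), Tac2 (19.4 ± 16.4) and Nts (14.8 ± 11 FPKM) formed the middle tier. Crh (3.83 ± 2.75), Vip (2.85 ± 1.78) and Pnoc (2.67 ± 1.70 FPKM) were lowest. Within a library, the log2 ratio of Cck to Cartpt averaged 2.27 ± 1.56 (SD) and Cck was the higher in 60 of 66 libraries. That of Nts to Crh averaged 1.97 ± 0.84, with Nts above Crh in all 66. Neighbours inside a tier did not differ beyond their spread: the ratio was 0.62 ± 1.39 for Cartpt to Tac2, 0.17 ± 1.45 for Tac2 to Nts, 0.38 ± 1.37 for Crh to Vip and 0.11 ± 1.43 for Vip to Pnoc. No member was at 0 in any library, although Pnoc was under 1 FPKM in 8 and Vip and Crh in 5 each.

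All 7 precursors varied far more between libraries of 1 group than most genes did. The SD within groups on the log2(FPKM + 1) scale was 1.23 for Tac2, 0.85 for Cartpt, 0.80 for Cck, 0.72 for Nts, 0.69 for Crh, 0.66 for Pnoc and 0.61 for Vip. The median of the 12945 genes averaging at least 1 FPKM was 0.27, and between 96.5% (Vip) and 99.5% (Tac2) of them were less variable than the member. The ratio of the highest to the lowest library of a group had a median over groups of 2.04 for Cck and 3.33 for Tac2. Its extreme was Tac2 in WT cocaine ZT19 libraries, from 1.28 to 64.2 FPKM. One WT library, cocaine ZT15 replicate 3, was the lowest of all 66 for 5 members (Cartpt, Nts, Cck, Crh and Pnoc) and also had the lowest sum of FPKM. Another, WT cocaine ZT19 replicate 2, was the highest of the 33 WT libraries for Cartpt, Nts, Crh and Pnoc.

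**Figure D1:**
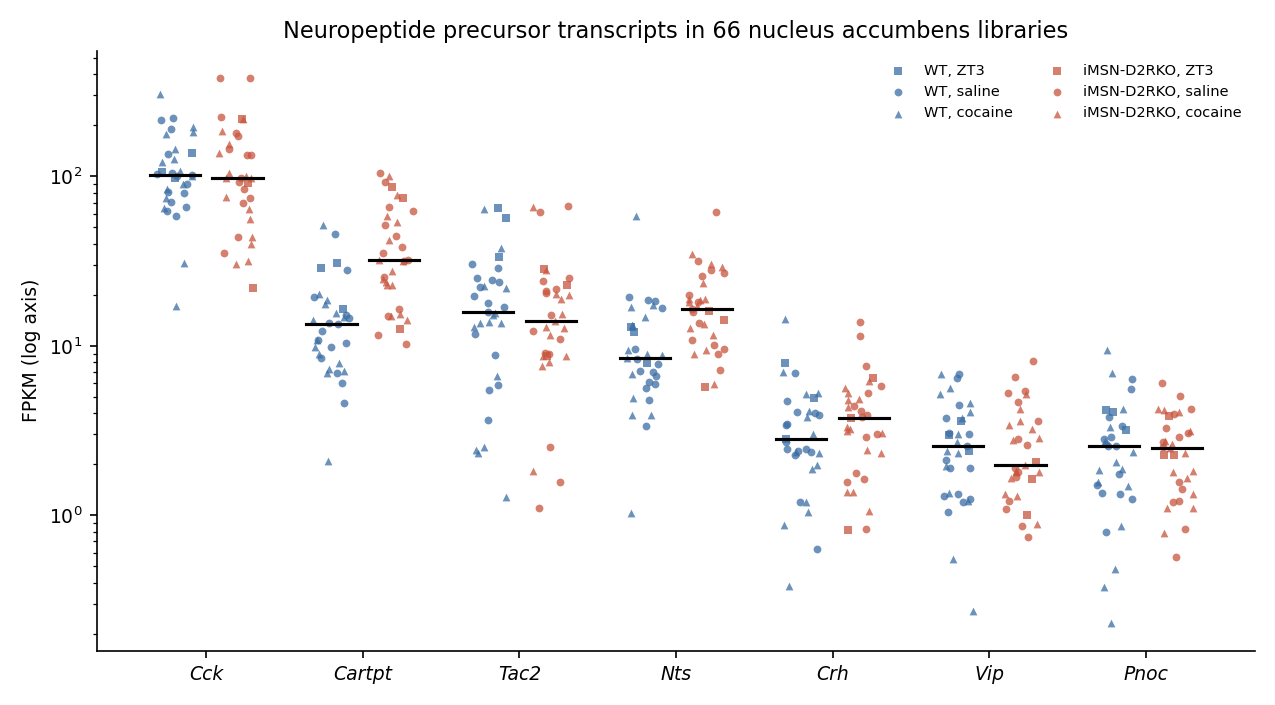
FPKM on a log axis of the 7 precursor genes in each of 66 libraries, WT in blue and iMSN-D2RKO in red, with squares for ZT3, circles for saline and triangles for cocaine, and a black bar at the median of 33 libraries. The medians of Cartpt (13.4 against 32.1 FPKM) and Nts (8.52 against 16.5 FPKM) lie higher in iMSN-D2RKO libraries, and those of Cck lie side by side (102 against 97.9 FPKM).

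Whether loss of D2R from iMSNs goes with another level of these transcripts was asked by comparing the genotypes over all libraries, with time point and treatment matched. Cartpt was higher in iMSN-D2RKO mice, and so was Nts. Cartpt ranged from 2.1 to 51.5 FPKM (median 13.4) in the 33 WT libraries and from 10.2 to 104 FPKM (median 32.1) in the 33 iMSN-D2RKO libraries. Of the latter, 30 lay above the WT median and 10 above the highest WT library, so the genotypes overlapped. The log2 fold change was 1.33 (SE 0.21, 95% interval 0.90 to 1.76), a 2.51-fold difference on the FPKM + 1 scale (limma, adjusted p = 5.72e-05). Nts ranged from 1.03 to 58.6 FPKM (median 8.52) in WT and from 5.70 to 61.3 FPKM (median 16.5) in iMSN-D2RKO libraries, 30 of which were above the WT median and 1 above the WT maximum. Its log2 fold change was 0.78 (SE 0.19, 95% interval 0.39 to 1.16), a 1.71-fold difference (limma, adjusted p = 0.0306).

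A gene was called at an adjusted p under 0.05. By that rule 2 of the 7 members were called in this comparison, both higher in iMSN-D2RKO mice, where 0.792% of the 14643 genes tested were called and 0.526% were called as higher. Leaving out each of the 66 libraries in turn kept both calls, with adjusted p-values up to 1.28e-04 for Cartpt and up to 0.0498 for Nts. Leaving out all libraries of 1 replicate number, a loss of 22 libraries, ended the Nts call each time (adjusted p = 0.531, 0.0606 and 0.589 without replicate 1, 2 and 3) and the Cartpt call without replicate 3 (adjusted p = 0.0694). The Nts call did not hold without the 13 set-apart libraries (log2 fold change 0.63, adjusted p = 0.111), in which Nts was higher (median 25.7 against 9.53 FPKM in the other 53). Cartpt kept its call there (1.28, adjusted p = 0.00179).

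The other 5 members showed no called difference. Cck ran from 17.2 to 305 FPKM (median 102) in WT and from 21.8 to 380 FPKM (median 97.9) in iMSN-D2RKO libraries. Tac2 ran from 1.28 to 65.2 FPKM (median 15.8) and from 1.11 to 66.5 FPKM (median 14), and Crh from 0.382 to 14.4 FPKM (median 2.81) and from 0.816 to 13.9 FPKM (median 3.74). The genotypes overlapped over nearly their whole range for these 3 peptides. Vip ran from 0.273 to 6.84 FPKM (median 2.57) and from 0.745 to 8.12 FPKM (median 1.99), and Pnoc from 0.230 to 9.39 FPKM (median 2.55) and from 0.566 to 6.04 FPKM (median 2.5). The fitted log2 fold change was 0.17 for Crh (95% interval -0.19 to 0.53), -0.01 for Pnoc (-0.33 to 0.30), -0.06 for Vip (-0.36 to 0.23), -0.08 for Cck (-0.46 to 0.30) and -0.09 for Tac2 (-0.69 to 0.51). These intervals leave room for differences of either sign, widest for Tac2. The median log2 fold change was -0.01 over the 7 members and 0.01 over all genes tested.

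**Figure D2:**
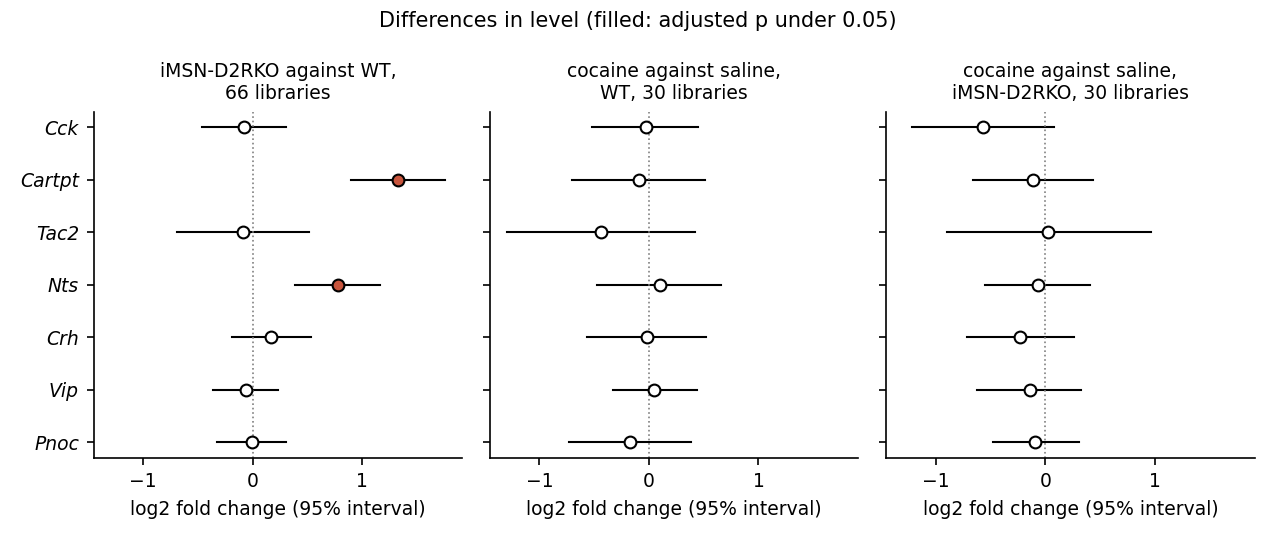
Fitted log2 fold change (point) with its 95% interval (line) of the 7 genes, on the log2(FPKM + 1) scale, for iMSN-D2RKO against WT over 66 libraries and for cocaine against saline in the 30 WT and the 30 iMSN-D2RKO libraries of ZT7 to ZT23; filled points have an adjusted p under 0.05. Only Cartpt (1.33) and Nts (0.78) in the genotype panel are filled.

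Within each treatment both genes kept their direction at a similar size. In the 36 ZT3 and saline libraries Cartpt differed by a log2 fold change of 1.29 (SE 0.28, adjusted p = 0.0429), the only member among the 0.189% of genes called. This call was marginal: leaving out any 1 of 26 of the 36 libraries ended it, the adjusted p reaching 0.0820 without WT saline ZT23 replicate 2, and with the replicate number as a block it was 0.0617. Nts differed there by 0.79 (SE 0.23, adjusted p = 0.252). In the 30 cocaine libraries Cartpt differed by 1.37 (SE 0.31, adjusted p = 0.156) and Nts by 0.77 (SE 0.31, adjusted p = 1.0), and no member was among the 0.0487% of genes called. Leaving out WT cocaine ZT19 replicate 2 brought Cartpt to 1.53 with an adjusted p of 0.0255. The 2 comparisons share no library, since ZT3 entered with saline alone.

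By time point, the mean of Cartpt was higher in iMSN-D2RKO libraries in all 11 combinations of time and treatment and that of Nts in 10. All 3 iMSN-D2RKO libraries lay above all 3 WT libraries in 5 of the 11 combinations for Cartpt and in 5 for Nts, and in none for the other 5 members. Over all genes and combinations, all 3 iMSN-D2RKO libraries lay above all 3 WT libraries in 9.04% of cases. In the reverse order, all 3 iMSN-D2RKO libraries lay below all 3 WT libraries in 2 combinations for Vip, in 1 for Cck and in 1 for Tac2. The share of all genes in that reverse order was not counted, so these reverse counts cannot set the 3 members apart from other genes. The widest separation of Cartpt was at ZT23 after saline, with 38.2, 104 and 65.6 FPKM in iMSN-D2RKO against 12.2, 6.03 and 8.45 FPKM in WT libraries. The highest of the WT values there was less than the lowest of the iMSN-D2RKO values, and the log2 fold change was 2.76 (SE 0.67), yet the limma adjusted p was 0.506. The exception for Nts was ZT19 after cocaine, where WT libraries held 17.4, 58.6 and 17.0 FPKM and iMSN-D2RKO libraries 17.2, 13.4 and 9.50 FPKM. There, WT replicates 1 and 3 were set-apart libraries, among which Nts ran higher, and WT replicate 2 was the highest WT library for Nts. No iMSN-D2RKO library of that group was set apart, so genotype and this imbalance cannot be told apart at that time.

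Only at ZT15 after cocaine were members called at a single time point. Cartpt stood at 101, 27.5 and 41.8 FPKM in iMSN-D2RKO libraries and at 7.94, 20.2 and 2.1 FPKM in WT libraries (log2 fold change 2.57, SE 0.67, adjusted p = 0.0251). Nts stood at 23.5, 18 and 34.6 FPKM against 3.92, 14.8 and 1.03 FPKM (2.24, SE 0.57, adjusted p = 0.0236). Neither gene overlapped between the genotypes there, and 4.40% of all genes were called in the same contrast. Over all 11 time-point contrasts together, 1.77% of tests were called. Both calls were lost without single libraries. Without WT replicate 3, the library lowest for 5 members, Cartpt fell to 1.86 (adjusted p = 0.395) and Nts to 1.54 (adjusted p = 0.398). Without iMSN-D2RKO replicate 3, a set-apart library, Cartpt was at 2.68 (adjusted p = 0.129) and Nts at 2.0 (adjusted p = 0.170), and without iMSN-D2RKO replicate 1 Cartpt was at 2.06 (adjusted p = 0.0877).

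**Figure D3:**
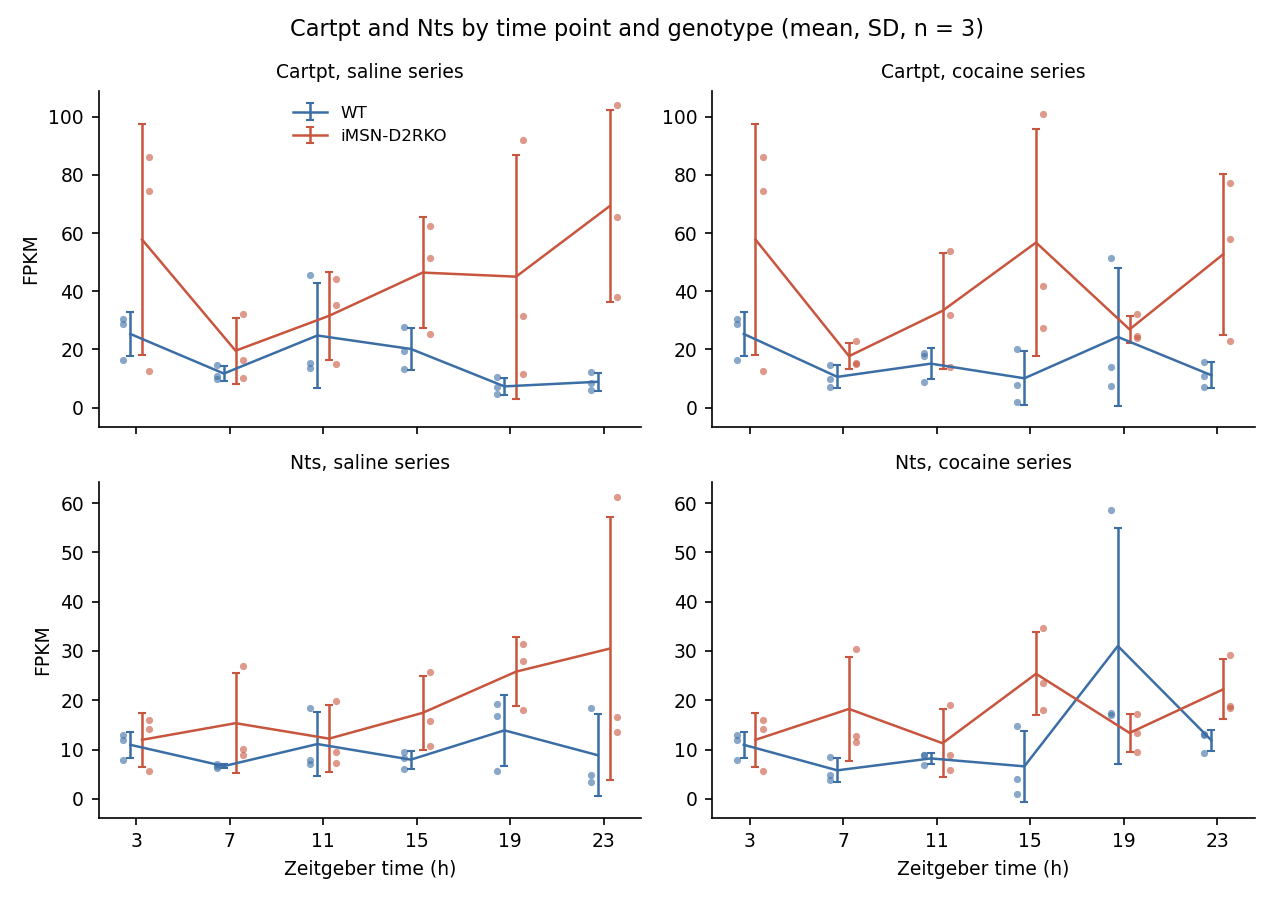
FPKM of Cartpt and Nts at 6 zeitgeber times in the saline and cocaine series, each starting from the same ZT3 libraries; points are libraries, lines join means and bars are SD (n = 3), WT in blue and iMSN-D2RKO in red. The iMSN-D2RKO mean of Cartpt lies above the WT mean at each time. After cocaine it is 17.7 against 10.6 FPKM at ZT7, 26.9 against 24.3 FPKM at ZT19 and 52.7 against 11.2 FPKM at ZT23. Nts crosses at ZT19 after cocaine, where WT replicates 1 and 3 are set-apart libraries.

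Cocaine was compared with saline over ZT7 to ZT23 in each genotype. No member differed in either one, and neither did any gene (limma, 0% called of 14392 and of 14238 genes, with 365 and 425 genes at an unadjusted p under 0.05, none of them a member). In WT mice the members ranged from -0.44 (Tac2, 95% interval -1.30 to 0.42) to 0.10 (Nts, -0.47 to 0.66) on the log2 scale. Cartpt was at -0.09 (-0.70 to 0.51). In iMSN-D2RKO mice they ranged from -0.57 (Cck, -1.22 to 0.08) to 0.03 (Tac2, -0.90 to 0.97), with Cartpt at -0.11 (-0.66 to 0.44). The intervals do not reach a 2.51-fold change for Cartpt in either direction, the size of its genotype difference, and smaller responses lie within them. The difference of the cocaine effect between genotypes was called for 0% of 14622 genes, 245 of which had an unadjusted p under 0.05, and for Cartpt it was -0.02 (-0.84 to 0.80).

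At single time points no member passed either, among 10 contrasts in which 0.00478% of tests were called. The contrast nearest to the threshold was Cck at ZT7 in iMSN-D2RKO mice, with 31.6, 75 and 64.1 FPKM after cocaine and 380, 91.9 and 180 FPKM after saline (log2 fold change -1.77, SE 0.63, adjusted p = 0.126). All 3 saline values were above all 3 cocaine values. One of them, at 380 FPKM, came from the library with the highest sum of FPKM, and leaving out another, saline replicate 2, brought the change to -2.27 with an adjusted p of 0.0314. In the same 2 groups the mean log2 level of the cortical markers was 2.77, 3.32 and 3.51 after cocaine and 3.89, 3.69 and 4.44 after saline. Crh at ZT19 in WT mice differed by 1.46 (SE 0.55, adjusted p = 0.789). Of the 5 contrasts of the cocaine effect between genotypes, with 0.00273% of tests called, the smallest p among members was that of Crh at ZT19 (-2.28, SE 0.77, adjusted p = 0.239). Without the set-apart libraries that difference was called, and so was Nts at ZT19 in WT mice after cocaine, but 3 of the 4 groups at ZT19 then held 1 library each (WT saline, WT cocaine and iMSN-D2RKO saline). These calls therefore set single libraries against each other, with the spread taken from the other groups, and the WT cocaine library left was replicate 2, the highest WT library for 4 members. Calls over all genes rose as well with that removal.

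Daily rhythm was tested with JTK_CYCLE at an exact p under 0.01 in each of 4 series of 18 libraries. None of the 7 members was rhythmic in any series, where 9.81% of genes were in WT saline, 7.61% in WT cocaine, 2.58% in iMSN-D2RKO saline and 1.10% in iMSN-D2RKO cocaine. Cck and Vip came nearest, both in WT mice. Cck in WT saline (exact p = 0.0146) averaged 209 FPKM ± 16.1 (SD, n = 3) at ZT23 and 80.2 ± 22.1 at ZT15. Vip in WT cocaine (exact p = 0.0106) averaged 5.16 ± 1.49 FPKM at ZT23 and 1.66 ± 0.637 at ZT7, and in WT saline (exact p = 0.0623) its highest mean was also at ZT23. The 3 WT saline libraries of ZT23 were among the high ones for cortical markers, at 4.36, 4.51 and 4.27 on the mean log2 scale against a WT median of 3.74. Whether tissue taken at ZT23 held more cortex was not tested. Cartpt gave exact p = 0.703 in WT saline and exact p = 0.995 in iMSN-D2RKO saline. No rhythm differed between treatments or genotypes for any member in the 4 comparisons of a 24 h cosine (limma, 0% of tests called, smallest unadjusted p among members 0.00653, for Crh between genotypes after saline).

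The members moved from library to library in 2 sets. Deviations from the group mean were correlated over the 66 libraries for Cck and Vip (Pearson's r = 0.74). The other 5 members were correlated among themselves, from 0.35 (Nts and Tac2) to 0.82 (Crh and Tac2), with a median of 0.52 over 10 pairs. Cartpt followed Crh (0.71) more than Nts (0.50). Between the sets, r ran from -0.34 to 0.28. These libraries share tissue, dissection and preparation, so the correlations describe them and carry no test.

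Some members of each set went with markers of other regions or cell types. Within groups, Vip and Cck followed the mean level of 12 cortical glutamatergic markers (r = 0.82 and 0.75), genes such as Slc17a7, the cortical vesicular glutamate transporter. That list summed to 800 to 1766 FPKM (median 1143) in WT and 775 to 5564 FPKM (median 1077) in iMSN-D2RKO libraries. A single gene, Nrgn, weighed heavily in the sum, with a mean of 774 FPKM and a maximum of 5181 FPKM. Only Emx1 was at 0 anywhere, in 1 library. Pnoc followed the 14 thalamic, septal and hypothalamic markers (r = 0.83), and went against the spiny projection neuron markers (r = -0.76). Tac2 did so less (0.53 and -0.57), as did Crh (0.37 and -0.38). Tac2, Pnoc and Crh also rose with interneuron markers (0.51, 0.44 and 0.31). The thalamic, septal and hypothalamic sum was 17.9 to 106 FPKM in WT and 14.8 to 94.2 FPKM in iMSN-D2RKO libraries. Cartpt and Nts were only weakly related to both lists (r between 0.06 and 0.22 in size), while on the score that set the 13 libraries apart Cartpt fell (-0.44) and Nts rose (0.37). Nts and Vip went against oligodendrocyte markers (-0.44 and -0.42), while Pnoc rose with them (0.32). Outside the marker lists, Nts rose with dense-core vesicle genes (0.64), as did Vip (0.47) and Cck (0.34). With the cortical or the thalamic, septal and hypothalamic marker level as a covariate, Cartpt (1.28 and 1.33) and Nts (0.77 and 0.78) kept their genotype calls. Because Cartpt and Nts were only weakly related to both marker levels, this adjustment could change their estimates little. It cannot show whether dissection had a part in their genotype differences. The part of the dissection in the levels was not tested for any member.

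**Figure D4:**
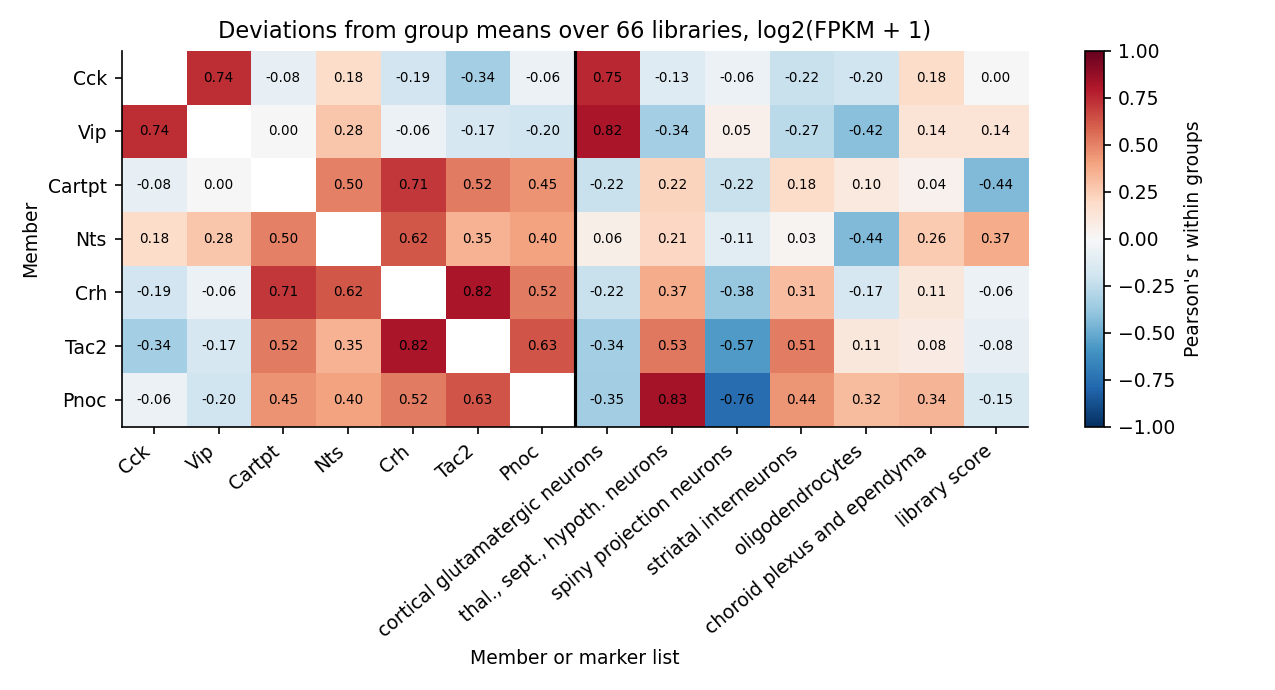
Pearson's r of deviations from the group mean in log2(FPKM + 1) over 66 libraries, between the 7 members (left of the black line) and between members and the mean level of 6 marker lists or the library score (right). Cck and Vip form 1 block (0.74) that follows cortical markers, and the other 5 form another (0.35 to 0.82) in which Pnoc follows thalamic, septal and hypothalamic markers (0.83).

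**Figure D5:**
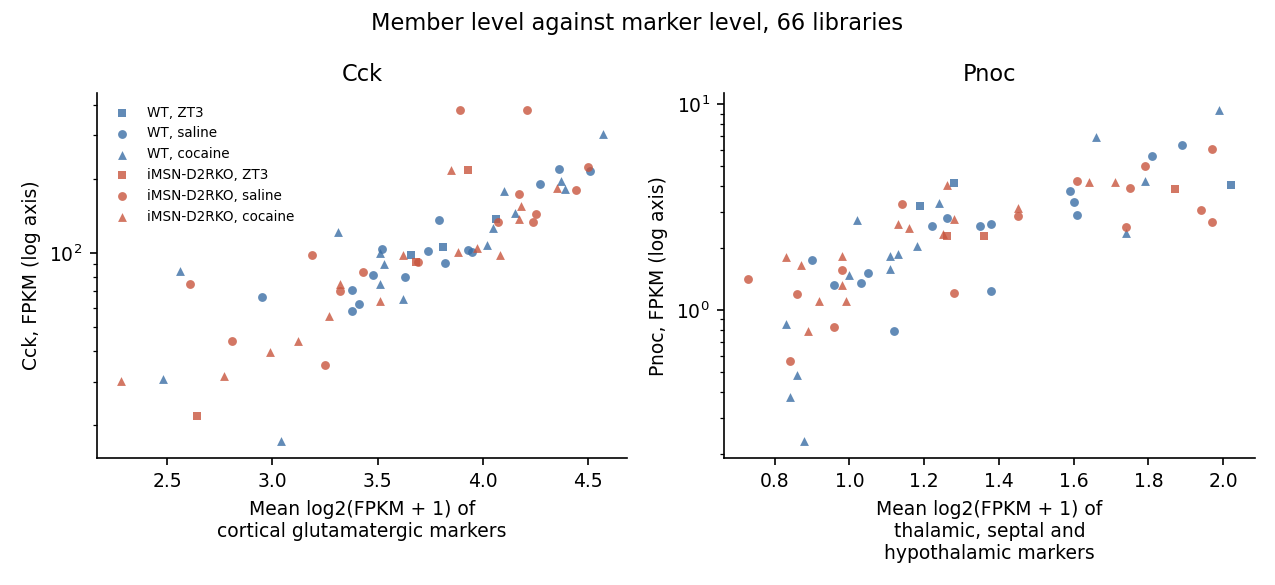
Cck against the mean log2(FPKM + 1) of 12 cortical markers and Pnoc against that of 14 thalamic, septal and hypothalamic markers in 66 libraries, with FPKM on a log axis; colours give genotype and shapes treatment. Libraries of both genotypes cover much the same range of the markers, with cortical means from 2.48 to 4.57 in WT and 2.28 to 4.50 in iMSN-D2RKO libraries.

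Among 9401 other genes with a mean of at least 5 FPKM, the 3 whose level was most like each member over the 66 libraries were named. For Cartpt they were 6330403K07Rik (r = 0.78), Nnat (0.76) and Lypd1 (0.71). For Nts they were Cetn2 (0.82), Scg2 (0.82), a secretogranin of dense-core vesicles, and Wbp5 (0.81). Cck was closest to Rtn4r (0.90), Olfm1 (0.89) and Nrn1 (0.88), and Vip to Cckbr (0.88), a cholecystokinin receptor, 3110035E14Rik (0.87) and Nov (0.87). Crh was closest to Zcchc12 (0.86), Peg10 (0.80) and Tmem130 (0.80), Tac2 to Galnt16 (0.76), Tmem130 (0.76) and Pcdh8 (0.75), and Pnoc to Btbd11 (0.82), Cpne7 (0.79) and Slc25a18 (0.79). Of these 20 genes, Lypd1 (log2 fold change 0.39, adjusted p = 0.00850) and Scg2 (0.34, adjusted p = 0.0409) were called as higher in iMSN-D2RKO mice. Of all genes tested, 0.792% were called. Because likeness was taken over both genotypes, the genotype difference of Cartpt and Nts entered the choice of their like genes. The 2 calls are therefore no independent support for it. Within groups, r was 0.71 for Lypd1 with Cartpt and 0.71 for Scg2 with Nts.

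Of the genes for receptors and machinery of these peptides, 4 were called between genotypes, where 0.792% of all genes tested were called. Of 12 receptor and binding-protein genes tested, 1 was called, Vipr1, a VIP receptor (medians 5.88 FPKM in WT and 7.78 FPKM in iMSN-D2RKO, log2 fold change 0.28, adjusted p = 0.0329). The most abundant, the neurotensin receptor Ntsr2 (mean 106 FPKM) and the sorting receptor Sort1 (72.4 FPKM), were not. Of 16 processing and degradation genes 1 was called, Pam, which amidates peptides (log2 fold change 0.13, adjusted p = 0.0374), and not Cpe, the abundant carboxypeptidase (mean 1100 FPKM). Of 13 dense-core vesicle genes 2 were called, Scg2 and the granin Chga (0.34, adjusted p = 0.0491). All 4 were higher in iMSN-D2RKO mice, and the medians of the 3 lists were -0.04, 0.08 and 0.09 against 0.01 over all genes.

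Of 25 other neuropeptide precursors tested, 2 were called, both higher in iMSN-D2RKO mice, and the list had a median of -0.05. Of all genes tested, 0.792% were called and 0.526% were called as higher. Penk, the enkephalin precursor of indirect pathway neurons, had medians of 1317 FPKM in WT and 2201 FPKM in iMSN-D2RKO libraries (log2 fold change 0.73, SE 0.10, adjusted p = 1.89e-06). Rln3, the relaxin-3 precursor, was low, with medians of 0.258 and 1.03 FPKM (0.67, SE 0.09, adjusted p = 1.44e-06). Of 15 spiny projection neuron markers tested, 2 were called. They were Drd1, the dopamine D1 receptor (0.38, adjusted p = 2.74e-04), and Penk, which is on both lists. Tac1, a tachykinin precursor of the direct pathway, was not called. The median of this list was -0.00, against 0.01 over all genes, so the list as a whole did not rise. No gene of the cortical, thalamic, septal and hypothalamic, interneuron or oligodendrocyte lists was called between genotypes. Of 8 choroid plexus and ependyma genes 1 was, Clic6 (0.29, adjusted p = 0.0117).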

How the data were processed

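The authors sequenced stranded poly(A) libraries from NAcc punches (single-end, Illumina HiSeq), aligned them to mm10 with TopHat and Bowtie2, and deposited gene FPKM values made with the Cufflinks tools (Cuffnorm), 72 columns in all. The submitters' processing notes name CASAVA 1.8.2, Bowtie and Cuffnorm. Of the columns, 6 repeat ZT3 libraries value for value and were counted once. FPKM does not keep read numbers, so precision was taken from replicates.

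Levels were tested with limma 3.58.1 (R 4.3.3, trend) on log2(FPKM + 1) over genes with at least 1 FPKM in 1 library of the comparison, with Benjamini-Hochberg adjustment over all genes (threshold 0.05). Fold changes on this scale understate changes of low genes. Time-point contrasts used all 66 libraries as 22 group means. JTK_CYCLE was run after Dixon's test on each time point (genes with 1 FPKM, exact p under 0.01), with the order of tied template values set to match the study's listed statistics. Both were tested on simulated data. Correlations used log2(FPKM + 1).

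The members, gene lists and tests were chosen with earlier results of these data known. The text names all members, Drd2, 3 most similar genes a member, and from each list at most 3 genes by adjusted p and 3 by level, with genes at 0 named after their values were seen. Alternatives were a pseudocount of 0.1, no filter, rescaling, a replicate block, library-score and marker covariates, and leaving out libraries. Same-numbered libraries deviated together (r over 0.1) in 7 of 30 cocaine and saline pairs and 14 of 33 genotype pairs, so numbers were not taken to pair them.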

Additional observations from a re-analysis of the deposited data

How the results depend on the processing

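FPKM without read numbers, groups of 3 and a wide spread within groups limit the precision for these genes. Each added setting (marker covariates, the library of highest total FPKM, single libraries left out) was chosen after seeing the data.

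Cartpt was higher in iMSN-D2RKO libraries under all 13 alternatives over 66 libraries (log2 fold change 1.14 to 1.53) and called in 12, and Nts under all 13 (0.59 to 0.95) and called in 9. Over all libraries, the number of members called fell from 2 to 1 without the set-apart libraries (Cartpt) and ran from 0 to 2 when replicates or single libraries were left out, all genes called falling from 116 to 18 without replicate 3, when Cartpt had an adjusted p of 0.0694. In saline the 1 call went to 0 without a filter on low values (adjusted p = 0.0670), with the replicate block (0.0617), without the set-apart libraries (0.0803) and without the library of highest total FPKM (0.0670), and was 0 or 1 when replicates or libraries were left out. In cocaine 1 member (Cartpt, adjusted p = 0.0297) was called with all 66 libraries in 1 fit, and 0 or 1 when single libraries were left out.

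At single time points the genotype calls rose from 2 to 4 without the set-apart libraries (Cartpt and Nts at ZT15, Nts and Crh at ZT19, after cocaine) and ran from 0 to 3 with replicates or libraries left out. The cocaine calls went from 0 to 1 (Nts, WT, ZT19) and the difference of the cocaine effect from 0 to 1 (Crh, ZT19) without the set-apart libraries, and the cocaine calls were 0 or 1 with single libraries left out. At ZT19 this removal left 1 library each in WT saline, WT cocaine and iMSN-D2RKO saline, so the calls gained there rest on single libraries assumed to vary like the other groups. Calls over all genes rose with the same removal, in the genotype, cocaine and difference contrasts alike, so the gained calls are not particular to these members. A 24 h cosine in limma called 1 member in WT saline (Cck), and JTK_CYCLE called 1 in WT cocaine (Vip, exact p = 7.03e-04) without replicate 3, its range being 0 to 1.

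Small differences that were not called turned sign: Cck (0.04) and Vip (0.03) with the cortical covariate, Crh (-0.02) without the set-apart libraries, Pnoc with a pseudocount of 0.1 (0.04), without the library of highest total FPKM (0.03) and and when replicates were left out (-0.15 to 0.06), and Tac2 when replicates were left out (-0.19 to 0.10). Tac2 at ZT7 after saline, not called with all libraries (-2.19, adjusted p = 0.182), was called without iMSN-D2RKO replicate 2 (-3.35, adjusted p = 0.0201). The replicate block changed no other call of a member. With the block, 2 members were called over all libraries.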
